A study of Mus musculus with 6 samples.

Results

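The 8 genes described here, Ccl2, Ccl7, Ccl12, Ccl8, Ccl6, Ccl9, Ccl3 and Ccl4, encode CC chemokines that are usually assigned to myeloid cells. They were taken by symbol from the 27933 genes of the count matrices, and all 8 were present in each of the 6 libraries. The libraries are Drop-seq single-cell libraries, in which each cell's transcripts share a barcode and each molecule is counted once through its UMI, a short random tag. They come from tumours of Balb/c mice grown from the 4T1 line of mouse mammary carcinoma. In 3 libraries the treatment label is FVIO-MHT, mild magnetic hyperthermia through ferrimagnetic vortex nanorings, and in the other 3 it is PBS, phosphate-buffered saline. The protocol text, which is the same for all 6 samples, describes nanorings placed in the tumour at 0.1 mg per cm3 of tumour volume, an alternating field of 365 kHz for 10 min and a wait of 24 hours. The labels leave unstated whether PBS tumours met the field, how old the mice were and whether each library is 1 animal. The p-values below therefore measure the spread between libraries, which may be technical in part.

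CC chemokines are small secreted proteins that bind G protein-coupled receptors on leukocytes and direct their migration. Ccl2, Ccl7 and Ccl12 are monocyte chemoattractants that act through Ccr2, and Ccl8 is their close relative. Ccl3 and Ccl4 are the macrophage inflammatory proteins, and Ccl3 shares the receptor Ccr1 with Ccl6 and Ccl9. In tumours these proteins are known for bringing in monocytes, macrophages and neutrophils.

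Each library lists 5000 barcodes and holds between 678337 and 2207534 UMIs. Barcodes with at least 200 detected genes, 6730 of 30000, were kept as cells, from 332 in FVIO-MHT 1 to 2325 in FVIO-MHT 3. Median depth in them ran from 400 to 834 UMIs. PBS 2 and PBS 3 shared 44 barcodes where chance gives 1.49, and 33 of these were kept in both. For 32 of the 33 the profile was most like that of the same barcode in the other library, so these 2 libraries do not look wholly separate, and values without the shared barcodes are given below. Every other pair of libraries shared at most 6 barcodes.

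Cells were clustered without any chemokine gene, so that the levels below did not draw the clusters, and 15 clusters were named from fixed markers. Macrophage/monocyte-like cells are clusters 1 and 2 and numbered 62, 223 and 399 in FVIO-MHT 1, 2 and 3, and 92, 198 and 91 in PBS 1, 2 and 3. Neutrophil-like cells numbered 265, 397 and 3 against 67, 9 and 7. Fibroblast-like cells numbered 3, 61 and 128 against 7, 24 and 34. Tumour epithelial-like cells numbered 1, 254 and 1286 against 475, 1078 and 194, although the labels give breast cancer cells as the cell type of every sample. A library entered a comparison within a class with at least 20 cells of it.

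The 8 genes lie on chromosome 11 in 2 groups (GRCm38, the build also called mm10, positions counted from 1), and the annotation gives each as protein-coding. Ccl2 (82035571 to 82037453), Ccl7 (82045712 to 82047525), Ccl12 (82101845 to 82103400) and Ccl8 (82115185 to 82116799) are on the plus strand. Ccl9 (83572919 to 83578636), Ccl6 (83587882 to 83593087) and Ccl3 (83647844 to 83649355) are on the minus strand, and Ccl4 (83662584 to 83664683) is on the plus strand. The longest stretch of identical bases between the annotated transcripts of any pair was 25, between Ccl6 and Ccl9, followed by 23 between Ccl2 and Ccl7, both neighbours, while the neighbours Ccl3 and Ccl4 shared 9. RefSeq promoter sequences (GRCm38.p6) were matched for 5 of the 8 genes. The 250 bases before the start are shown for Ccl12, Ccl8 and Ccl9, whose UMIs were mostly in macrophage/monocyte-like cells, and for Ccl3, whose UMIs were mostly in neutrophil-like cells. Capitals mark matches, searched on both strands, to a TATA box (TATAAA), AP-1 (TGANTCA), the core of the myeloid factor PU.1 (GAGGAA) and the longer NF-kB motif, which was found once, as GGAAAGCCCC in Ccl9.
Ccl12: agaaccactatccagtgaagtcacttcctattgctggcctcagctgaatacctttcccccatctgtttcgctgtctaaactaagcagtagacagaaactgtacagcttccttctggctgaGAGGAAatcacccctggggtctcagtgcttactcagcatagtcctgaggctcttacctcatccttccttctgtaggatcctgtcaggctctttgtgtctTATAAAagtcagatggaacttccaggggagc
Ccl8: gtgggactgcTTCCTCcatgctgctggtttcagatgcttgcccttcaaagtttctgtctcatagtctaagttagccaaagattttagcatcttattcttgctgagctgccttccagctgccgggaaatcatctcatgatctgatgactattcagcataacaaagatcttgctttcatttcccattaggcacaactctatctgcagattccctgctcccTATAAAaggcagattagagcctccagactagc
Ccl9: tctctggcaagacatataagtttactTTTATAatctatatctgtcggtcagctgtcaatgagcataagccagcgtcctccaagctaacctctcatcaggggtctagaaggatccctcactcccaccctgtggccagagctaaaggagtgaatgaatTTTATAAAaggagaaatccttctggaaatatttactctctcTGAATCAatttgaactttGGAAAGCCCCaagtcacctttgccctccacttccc
Ccl3: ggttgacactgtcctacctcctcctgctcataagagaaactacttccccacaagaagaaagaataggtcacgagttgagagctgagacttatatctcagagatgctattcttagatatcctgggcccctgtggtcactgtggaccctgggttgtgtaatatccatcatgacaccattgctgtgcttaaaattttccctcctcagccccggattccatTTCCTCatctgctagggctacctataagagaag
Of 32851 promoters of this length in the table, 12.4% hold the TATA box, 6.75% the AP-1 match, 23.2% the PU.1 core and 1.41% the NF-kB match. The TATA box was found 31 bases before the start in Ccl12 and 32 before it in Ccl8, but not in Ccl3 within this window. The Ccl3 window ends at base 83649379, short of the gene start at 83649355 given above, so the bases between were not searched. A PU.1 core was found in Ccl12, Ccl8 and Ccl3. Ccl9 held the AP-1 and the NF-kB match, and its TATA box overlaps one read on the other strand. Ccl6 held none of these 4 motifs. These matches describe letters and are not shown to be sites in use.

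Macrophage/monocyte-like and neutrophil-like cells together held most UMIs of 6 of the 8 genes, and fibroblast-like cells were the largest source of Ccl2 and Ccl7. Over all libraries 43.2% of 1344 Ccl2 UMIs (95% Clopper-Pearson interval 40.5 to 45.9%) and 50.2% of 1060 Ccl7 UMIs (47.1 to 53.2%) were in fibroblast-like cells, which made up 257 of the 6730 cells. Macrophage/monocyte-like cells held 14.1% and 29.4% of them. The same class held 75% of 212 Ccl12 UMIs, 67.4% of 426 Ccl8 UMIs, 68.3% of 246 Ccl9 UMIs and 57.4% of 556 Ccl6 UMIs. Neutrophil-like cells held 78.2% of 2513 Ccl3 UMIs, 50.3% of 1648 Ccl4 UMIs and 22.3% of the Ccl6 UMIs. In barcodes with at least 400 detected genes, where 8 of the 265 neutrophil-like cells of FVIO-MHT 1 remain, these 3 shares were 40.3%, 19.96% and 4.29%, and macrophage/monocyte-like cells were the largest source of Ccl4 at 58.0%. These shares pool libraries of unlike cell make-up and cover counting error only, as do all intervals here.

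**Figure D1:**
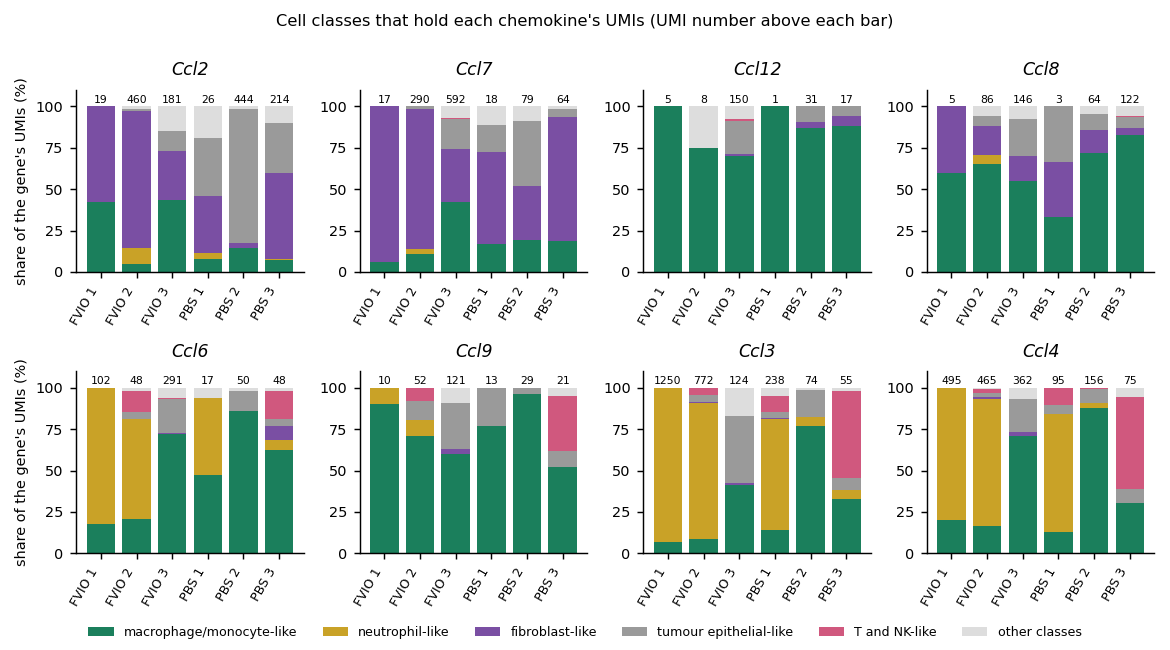
Share of each chemokine's UMIs (percent, vertical axis) by cell class in each library, with the number of UMIs above each bar. Neutrophil-like cells hold most Ccl3 in FVIO-MHT 1, FVIO-MHT 2 and PBS 1, whereas macrophage/monocyte-like cells hold the largest share in PBS 2; Ccl2 of PBS 2 is mostly in tumour epithelial-like cells.

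The source of a chemokine also differed between libraries. Neutrophil-like cells held 92.8%, 82.5% and 67.2% of the Ccl3 UMIs in FVIO-MHT 1, FVIO-MHT 2 and PBS 1, the only libraries with at least 20 cells of that class. In PBS 2, 77.0% of Ccl3 was in macrophage/monocyte-like cells. In PBS 3, 52.7% of 55 Ccl3 UMIs and 56.0% of 75 Ccl4 UMIs were in T and NK-like cells, and 1 cell of that class held 26 Ccl3 and 32 Ccl4 UMIs among 817 in all. Scrublet did not call that cell a doublet. It also held 7 Ccl9 and 5 Ccl6 UMIs, or 7 of the 21 Ccl9 UMIs of PBS 3. Fibroblast-like cells held 82.8% of Ccl2 in FVIO-MHT 2 but 3.38% in PBS 2, where tumour epithelial-like cells held 80.6%.

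Between classes, the level is given as CPM, the gene's UMIs scaled to a fixed total of UMIs for the class in a library, and is a description, since clusters differ by construction in many genes. Ccl2 ranged from 508 to 4556 CPM in fibroblast-like cells (n = 4 libraries) and from 35.9 to 406 CPM in macrophage/monocyte-like cells (n = 6), without overlap. Ccl7 ranged from 989 to 2930 CPM and from 29.5 to 1204 CPM in the same classes, which overlap through FVIO-MHT 3. Ccl12 ranged from 18.0 to 506 CPM in macrophage/monocyte-like cells and from 0 to 38.0 CPM in fibroblast-like cells. No Ccl12 UMI was seen in 748 neutrophil-like cells, which at 3 counts allows up to 8.16 CPM. Ccl8 ranged from 18.0 to 1491 CPM in macrophage/monocyte-like and from 126 to 342 CPM in fibroblast-like cells, a full overlap. Ccl6 ranged from 68.8 to 1011 CPM in macrophage/monocyte-like and from 161 to 585 CPM in neutrophil-like cells (n = 3), which also overlap. Ccl9 lay between 162 and 352 CPM in macrophage/monocyte-like cells and between 0 and 27.8 CPM in neutrophil-like cells, without overlap. Ccl3 lay between 3538 and 8077 CPM in neutrophil-like cells, above the 246 to 2570 CPM of macrophage/monocyte-like cells in every library. Ccl4 lay between 1994 and 2757 CPM in neutrophil-like cells and between 216 and 2924 CPM in macrophage/monocyte-like cells, which overlap.

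Over all kept barcodes of a library, Ccl3 and Ccl4 had the largest fitted differences between the groups, and no member passed the adjusted threshold. Of 8603 genes tested, edgeR's quasi-likelihood test with Benjamini-Hochberg adjustment called 0% at an adjusted p under 0.05, and the smallest adjusted p of the 8 members was 0.878. At an unadjusted p under 0.05 it found 5 of the 8 members (Ccl7, Ccl6, Ccl9, Ccl3 and Ccl4), each with the higher mean in FVIO-MHT, beside 5.24% of all genes in either direction and 3.68% higher with FVIO-MHT. DESeq2 called 4 of the 8 higher with FVIO-MHT, with adjusted p of 0.0345 for Ccl7, 0.0239 for Ccl6, 0.00363 for Ccl3 and 0.00223 for Ccl4, beside 1.91% of all genes called higher and 2.15% in either direction. The median log2 difference, FVIO-MHT minus PBS throughout, was 1.79 over the 8 members and -0.04 over all genes tested. A sum over a library mixes how many cells of a type it holds with how much RNA each makes, and neutrophil-like cells were 79.8%, 37.9% and 0.129% of FVIO-MHT 1, 2 and 3 and 6.20%, 0.616% and 1.45% of PBS 1, 2 and 3.

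**Figure D2:**
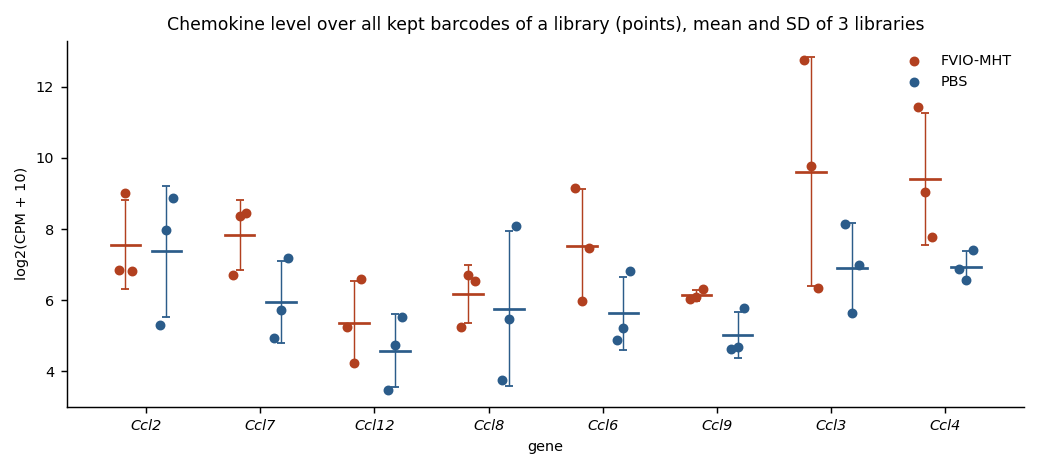
Level of each chemokine over all kept barcodes, as log2(CPM + 10) on the vertical axis, with 1 point per library and the mean and SD of 3 libraries for FVIO-MHT and PBS. The groups overlap for 6 genes and not for Ccl9 and Ccl4; Ccl3 spans the widest range within FVIO-MHT, from 71.0 to 6898 CPM.

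Among the Ccr2 ligands, Ccl2 was measured at 105, 511 and 104 CPM in FVIO-MHT 1, 2 and 3 and at 29.5, 239 and 454 CPM in PBS 1, 2 and 3. The groups overlap, with FVIO-MHT 2 the highest library and PBS 1 the lowest, and the log2 difference was 0.12 ± 0.94 (SE; 0.20 without the shared barcodes). Ccl7 was at 93.8, 322 and 339 CPM against 20.4, 42.5 and 136 CPM. FVIO-MHT 2 and 3 lay above every PBS library and FVIO-MHT 1 lay below PBS 3, and the log2 difference was 2.04 ± 0.73 (SE; 2.15 without the shared barcodes; edgeR adjusted p = 0.878). Ccl12 was at 27.6, 8.88 and 85.9 CPM against 1.14, 16.7 and 36.1 CPM, from 5, 8, 150, 1, 31 and 17 UMIs. FVIO-MHT 3 was the highest and the groups overlap, with a log2 difference of 1.44 ± 1.02 (SE; 1.71 without the shared barcodes), or 0.11 without FVIO-MHT 3. Ccl8, their relative, was at 27.6, 95.5 and 83.6 CPM against 3.41, 34.4 and 259 CPM, so that the highest and the lowest library were both PBS. Its log2 difference was -0.35 ± 1.12 (SE; -0.53 without the shared barcodes) and changed sign to 1.91 without PBS 3.

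Of the Ccr1 ligands, Ccl6 was at 563, 53.3 and 167 CPM in FVIO-MHT 1, 2 and 3 and at 19.3, 26.9 and 102 CPM in PBS 1, 2 and 3. FVIO-MHT 2 lay below PBS 3, and the log2 difference of 2.96 ± 1.12 (SE; 2.86 without the shared barcodes) was 1.22 without FVIO-MHT 1. Ccl9 was at 55.2, 57.7 and 69.3 CPM against 14.8, 15.6 and 44.6 CPM. Every FVIO-MHT library lay above every PBS library, from 10, 52, 121, 13, 29 and 21 UMIs, and the log2 difference was 1.54 ± 0.55 (SE; 1.45 without the shared barcodes; edgeR adjusted p = 0.878). Ccl4, a macrophage inflammatory protein, was at 2732, 516 and 207 CPM against 108, 84.0 and 159 CPM, again with every FVIO-MHT library above every PBS library. Its log2 difference was 3.92 ± 1.16 (SE; 3.84 without the shared barcodes) and 1.62 without FVIO-MHT 1. Such an order, here in 2 of 8 members, was found in 3.17% of all genes tested. Ccl3 was at 6898, 857 and 71.0 CPM against 270, 39.8 and 117 CPM. FVIO-MHT 3 lay below PBS 1 and PBS 3, and the log2 difference was 4.91 ± 1.69 (SE; 4.85 without the shared barcodes) and 1.71 without FVIO-MHT 1. With the neutrophil-like cells left out it was 3.18 for Ccl3 and also 3.18 for Ccl4, compared over the remaining cells of the same libraries. FVIO-MHT 1 then kept 67 cells, of which 62 were macrophage/monocyte-like, so the libraries still differed in cell make-up.

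**Figure D3:**
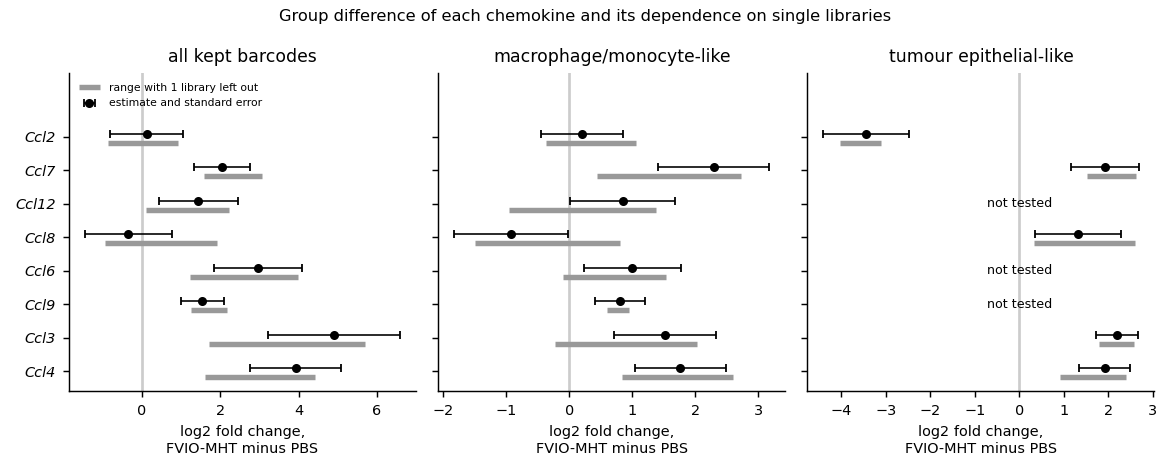
Log2 fold change of FVIO-MHT minus PBS (horizontal axis) for each chemokine in all kept barcodes, macrophage/monocyte-like cells and tumour epithelial-like cells, as the edgeR estimate with its standard error (black) and the range of estimates with 1 library left out (grey). The grey bars of Ccl2 and Ccl8 cross 0 over all kept barcodes, those of Ccl2, Ccl12, Ccl8, Ccl6 and Ccl3 do so in macrophage/monocyte-like cells, and that of Ccl2 in tumour epithelial-like cells stays between -4.02 and -3.11.

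Within macrophage/monocyte-like cells the differences were smaller for Ccl3 and Ccl4 than over whole libraries, and again no member passed the adjusted threshold. Of 2111 genes tested in 3 against 3 libraries, edgeR called 0% and found 4.69% at an unadjusted p under 0.05, while DESeq2 called 0.0947%, with no member among them. The members' adjusted p lay between 0.976 and 0.982. The 2 of 8 members under an unadjusted p of 0.05 were Ccl7 and Ccl4, beside 2.32% of all genes higher with FVIO-MHT. The clusters that make up the class were not alike in the groups. Arg1, Cybb and C1qc are among the 10 leading genes of both, beside Cd74 and Mmp12 in cluster 1 and Lyz2 and Saa3 in cluster 2. Cluster 1 held 3, 141 and 72 cells of FVIO-MHT 1, 2 and 3 and 65, 179 and 66 of PBS 1, 2 and 3. Cluster 2 held 59, 82 and 327 against 27, 19 and 25. The class of FVIO-MHT 1 depends on the clustering: at Leiden resolution 2, 7 of its 62 cells stayed macrophage/monocyte-like, and an unnamed cluster led by Saa3 and Mmp8 took 55 cells of the library.

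Ccl7 in these cells was at 29.5, 213 and 1204 CPM in FVIO-MHT 1, 2 and 3 and at 53.9, 96.8 and 177 CPM in PBS 1, 2 and 3. FVIO-MHT 3 alone held 250 of the 312 UMIs, FVIO-MHT 1 was the lowest of the 6, and the log2 difference of 2.30 ± 0.88 (SE; edgeR adjusted p = 0.976) was 0.44 without FVIO-MHT 3. Without the filter on low counts, on the same Ccl7 counts, Ccl7 was among 26 genes that passed the threshold (edgeR adjusted p = 0.0254). Ccl4 was at 2924, 523 and 1233 CPM against 216, 884 and 340 CPM, with FVIO-MHT 2 below PBS 2 and a log2 difference of 1.77 ± 0.73 (SE; edgeR adjusted p = 0.976). It was 3.49 in cluster 2 alone, a fit without PBS 2, and -0.40 in cluster 1 alone, a fit without FVIO-MHT 1, so cluster and library changed together. Ccl9 was at 266, 255 and 352 CPM against 180, 181 and 162 CPM, from 9, 37, 73, 10, 28 and 11 UMIs. It was the only member here with every FVIO-MHT library above every PBS library, an order found in 3.84% of genes tested, and its log2 difference was 0.81 ± 0.40 (SE; edgeR adjusted p = 0.976). In cluster 1 alone that difference was -0.87, and at a minimum of 400 detected genes it was 0.03, both in fits that FVIO-MHT 1 did not enter for want of cells.

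Ccl3 in macrophage/monocyte-like cells was at 2570, 454 and 246 CPM in FVIO-MHT 1, 2 and 3 and at 593, 368 and 266 CPM in PBS 1, 2 and 3. Only FVIO-MHT 1 stood above the PBS range, and the log2 difference of 1.52 ± 0.81 (SE) was -0.22 without it and 0.02 at Leiden resolution 2, where it did not enter the fit. Summed neutrophil markers in the class were also highest in FVIO-MHT 1, at 6912, 3749 and 1421 CPM against 3053, 368 and 1270 CPM. PBS 2 was the lowest library for the markers but not for Ccl3. From 8 to 10 of the 10 markers were seen per library, with Retnlg and G0s2 at 0 in PBS 2 and PBS 3. Per 100 neutrophil-marker UMIs there were 37.2, 12.1 and 19.4 Ccl3 UMIs in macrophage/monocyte-like cells for FVIO-MHT 1, FVIO-MHT 2 and PBS 1, and 7.29, 5.23 and 7.26 in the neutrophil-like cells of the same libraries. For Ccl4 the corresponding values were 42.3, 13.9 and 7.06 against 2.49, 2.95 and 3.08. Both chemokines were thus above the ratio of neutrophil-like cells, and how much of each came from neutrophil RNA was not tested.

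The other members in macrophage/monocyte-like cells overlapped between the groups. Ccl6 was at 532, 68.8 and 1011 CPM against 144, 277 and 443 CPM, with a log2 difference of 1.00 ± 0.77 (SE) that was -0.10 without FVIO-MHT 3. Ccl12 was at 148, 41.3 and 506 CPM against 18.0, 174 and 221 CPM, and its log2 difference of 0.85 ± 0.84 (SE) was -0.95 without FVIO-MHT 3. FVIO-MHT 3 was the highest library for both. Ccl2 was at 236, 151 and 380 CPM against 35.9, 406 and 221 CPM, a log2 difference of 0.20 ± 0.65 (SE). Ccl8 was at 88.6, 385 and 385 CPM against 18.0, 297 and 1491 CPM, a log2 difference of -0.92 ± 0.91 (SE) that was 0.81 without PBS 3. In PBS 3 a single cell of the class held 31 Ccl8 UMIs among 409 in all. Without the barcodes shared by PBS 2 and PBS 3 the 8 log2 differences lay between -1.01 for Ccl8 and 2.24 for Ccl7.

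**Figure D4:**
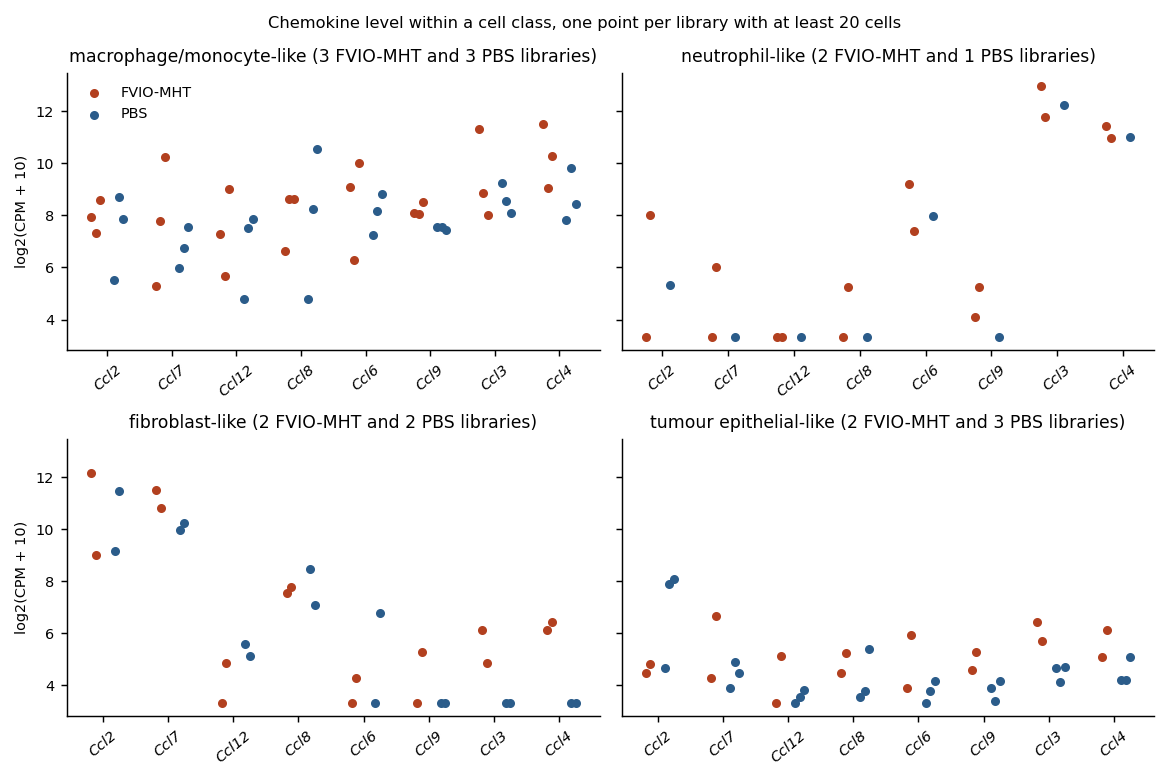
Level of each chemokine, as log2(CPM + 10) on the vertical axis, within 4 cell classes, with 1 point per library that holds at least 20 cells of the class. In macrophage/monocyte-like cells the Ccl9 points of the groups separate and those of the other 7 genes overlap; in tumour epithelial-like cells the Ccl2 points of PBS 2 and PBS 3 stand apart from those of the other 3 libraries.

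The 2 macrophage/monocyte-like clusters differed in the members' pooled levels. In cluster 2 Ccl7 was at 950 CPM (95% exact Poisson interval 840 to 1071) and in cluster 1 at 113 CPM (81.4 to 152). Ccl4 was at 1364 and 568 CPM, Ccl6 at 742 and 285 CPM, Ccl9 at 403 and 141 CPM, and Ccl2 at 406 and 194 CPM, again with cluster 2 first. Each of the 8 pooled levels was higher in cluster 2, where FVIO-MHT 3 gives 327 of 539 cells, so cluster and library are not separated in them. Cells with a Ccl7 UMI were 22.4% of cluster 2 and 5.32% of cluster 1. After thinning each cell with at least 300 UMIs to 300 they were 17.4% and 3.97%. Shallower cells are left out of this and all later thinned shares, which thus rest on fewer cells. Ccl7 was at 1425 CPM in the cluster 2 cells of FVIO-MHT 3 and between 0 and 408 CPM in those of the other 5 libraries.

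**Figure D5:**
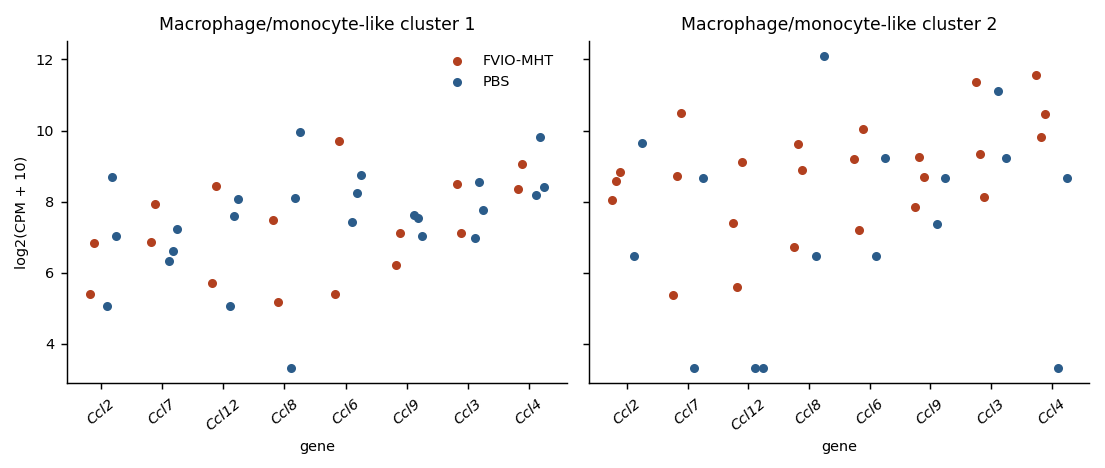
Level of each chemokine, as log2(CPM + 10) on the vertical axis, in macrophage/monocyte-like clusters 1 and 2, with 1 point per library that holds at least 20 cells of the cluster. Ccl4 of cluster 2 lies higher in the FVIO-MHT libraries (893 to 3019 CPM) than in PBS 1, where 0 UMIs were seen in 27 cells, and PBS 3. Ccl12 has the same order there, and the share of all genes with such an order was not computed for this cluster. In cluster 1 PBS 2 is the highest library for Ccl4 at 898 CPM.

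Neutrophil-like cells could be compared in 2 FVIO-MHT libraries against 1 PBS library, which is assumed to vary like the other 2, so the test has no PBS spread of its own. Ccl3 was at 8077 and 3538 CPM in FVIO-MHT 1 and 2 and at 4825 CPM in PBS 1. PBS 1 lay between the FVIO-MHT libraries, and the log2 difference was 0.58 ± 1.27 (SE). Ccl4 was at 2757 and 1994 CPM against 2051 CPM, also with PBS 1 in between, a log2 difference of 0.48 ± 1.15 (SE). Ccl6 was at 585 and 161 CPM against 241 CPM, a log2 difference of 0.96 ± 1.11 (SE). edgeR called 0.037% of 2706 genes here and none of the 4 members tested (Ccl3, Ccl4, Ccl6 and Ccl2, adjusted p = 0.9996), and 0 of the 4 had an unadjusted p under 0.05, beside 2.99% of all genes. A Ccl3 UMI was seen in 65% of neutrophil-like, 15% of macrophage/monocyte-like and 3.85% of B/plasma-like cells at median depths of 431.5, 467 and 343.5 UMIs, and in 58.5%, 10.1% and 3.45% after thinning to 300 UMIs. For Ccl4 it was 37.0% and 22.6% in the first and second class, and 0 of 182 B/plasma-like cells, which allows a share of cells with a UMI of up to 1.65%. Of the B/plasma-like cells, 172 are from PBS 1. Of neutrophil-like cells with Ccl3, 44.7% also held Ccl4, against 22.9% of those without, a share that depth alone can raise because deeper cells show more of both.

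In fibroblast-like cells, compared in 2 against 2 libraries, Ccl7 was higher in both FVIO-MHT libraries and Ccl2 was not ordered by group. Ccl7 was at 2930 and 1792 CPM in FVIO-MHT 2 and 3 and at 989 and 1210 CPM in PBS 2 and 3. The groups do not overlap, as for 17.3% of genes tested in this class, and the log2 difference was 1.08 ± 0.64 (SE; 1.29 without the shared barcodes; edgeR adjusted p = 0.998). Ccl2 was at 4556 and 508 CPM against 571 and 2799 CPM, so that FVIO-MHT 2 was the highest library and FVIO-MHT 3 the lowest. The log2 difference of 0.59 ± 1.06 (SE) was -1.92 without FVIO-MHT 2, 1.46 without FVIO-MHT 3, -0.11 without PBS 2 and 2.18 without PBS 3. Ccl8 was at 179 and 211 CPM against 342 and 126 CPM, a log2 difference of -0.23 ± 0.70 (SE). edgeR called 0.0851% of 1175 genes and DESeq2 0.426%, with none of these 3 members among them, and 0 of the 3 had an unadjusted edgeR p under 0.05, beside 4.26% of all genes. Cells with a Ccl2 UMI were 67.2% and 20.3% of fibroblast-like cells in FVIO-MHT 2 and 3 and 20.8% and 50% in PBS 2 and 3, and 49.2%, 10.3%, 16.7% and 45.2% after thinning. Of cells with Ccl2, 73.2%, 34.6%, 80% and 47.1% also held Ccl7 in FVIO-MHT 2, FVIO-MHT 3, PBS 2 and PBS 3, against 15%, 29.4%, 15.8% and 11.8% of cells without it, a contrast that was small in FVIO-MHT 3 and that depth can raise. The highest Ccl2 count of any cell, 48 UMIs, was in a fibroblast-like cell of FVIO-MHT 2.

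Tumour epithelial-like cells carried Ccl2 mainly in 2 PBS libraries. Ccl2 was at 12 and 18.5 CPM in FVIO-MHT 2 and 3 and at 15.3, 230 and 262 CPM in PBS 1, 2 and 3, from 5, 22, 9, 358 and 65 UMIs. PBS 1 lay between the FVIO-MHT libraries, and PBS 2 and PBS 3 were high. The log2 difference was -3.45 ± 0.96 (SE; edgeR adjusted p = 0.368) and -3.20 without the barcodes that PBS 2 and PBS 3 share. edgeR called 0% of 7604 genes in 2 against 3 libraries and found 9.78% at an unadjusted p under 0.05, while DESeq2 called 0.368%. DESeq2 did not call Ccl2 (adjusted p = 0.264) and gave no adjusted p for Ccl3, Ccl4, Ccl7 and Ccl8. Of the 5 members edgeR tested, 1 was lower with FVIO-MHT (Ccl2) and 3 were higher (Ccl3, Ccl4 and Ccl7) at an unadjusted p under 0.05, beside 4.37% of all genes higher. Without PBS 1, which leaves PBS 2 and PBS 3, the Ccl2 difference passed the threshold (-4.02 ± 0.42, SE, edgeR adjusted p = 0.0116). Without the filter on low counts Ccl2 (-3.44, edgeR adjusted p = 6.44e-11), Ccl3, Ccl4 and Ccl7 were among 200 genes that passed. Ccl2 had the same counts with and without the filter. Its lower adjusted p therefore came with the genes that entered the fit and not with a smaller spread between libraries. Cluster 6 held 345 of the Ccl2 UMIs of PBS 2 and 47 of those of PBS 3, at 291 and 282 CPM. The same cluster held 0 Ccl2 UMIs in the 41 cells of PBS 1, the 13 of FVIO-MHT 2 and the 2 of FVIO-MHT 3, and it contains 704 cells of PBS 2. In cluster 7, which 5 libraries share, Ccl2 was at 8.99 and 0 CPM in FVIO-MHT 2 and 3 and at 0, 38.9 and 112 CPM in PBS 1, 2 and 3. A Ccl2 UMI was seen in 10.2% of tumour epithelial-like cells of PBS 2 and 13.4% of PBS 3, in 1.97%, 1.48% and 1.05% of those of FVIO-MHT 2, FVIO-MHT 3 and PBS 1, and in 0 of the 36 and 42 T and NK-like cells of PBS 2 and PBS 3, which allows up to 8.33% and 7.14% of cells with a UMI. Median depth was 1000.5 and 874.5 UMIs in the tumour epithelial-like and 420.5 and 418 UMIs in the T and NK-like cells of PBS 2 and PBS 3. Barcodes under 200 detected genes held Ccl2 at 256 and 357 CPM in PBS 2 and PBS 3 and at 23.9 CPM in PBS 1. They held it at 289 and 185 CPM in FVIO-MHT 2 and 3, where the tumour epithelial-like levels were low. The part of free RNA in the tumour epithelial-like levels was not tested. After thinning, the shares of tumour epithelial-like cells with a Ccl2 UMI, in the order above, were 4.93% and 5.91% against 0.855%, 0.904% and 0.225%.

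Ccl3, Ccl4 and Ccl7 were measured at no more than 91.9 CPM in the tumour epithelial-like cells of any library compared. Ccl3 was at 77.1 and 42.2 CPM in FVIO-MHT 2 and 3 and at 15.3, 7.70 and 16.1 CPM in PBS 1, 2 and 3, a log2 difference of 2.20 ± 0.47 (SE; edgeR adjusted p = 0.304). Both FVIO-MHT libraries lay above every PBS library, an order found in 17.6% of genes tested. Ccl4 was at 24.1 and 60.7 CPM against 8.52, 8.34 and 24.2 CPM, and Ccl7 at 9.64 and 91.9 CPM against 5.11, 19.9 and 12.1 CPM. Their log2 differences were 1.92 ± 0.58 and 1.93 ± 0.76 (SE; edgeR adjusted p = 0.396 and 0.464). Without FVIO-MHT 2, which leaves FVIO-MHT 3 alone against the PBS libraries, they were 2.39 and 2.63. Markers of other cells were also highest in an FVIO-MHT library, without the same order of libraries throughout. Summed macrophage/monocyte markers were at 246 and 706 CPM against 52.8, 164 and 141 CPM, and neutrophil markers at 812 and 342 CPM against 215, 170 and 378 CPM, with 8 to 13 of 13 and 8 to 10 of 10 markers seen. Their part in the Ccl3, Ccl4 and Ccl7 differences was not tested. Of the clusters in this class, 9 and 12 carry haemoglobin genes among their 10 leading genes. Car3, Cfd and Saa1 lead cluster 9, and Jchain and Ptn lead cluster 12, which also has C1qa among its 10. No tumour epithelial marker is among them, except when only named non-epithelial clusters are the comparison. FVIO-MHT 3 gives 267 of the 363 cells of cluster 9 and 249 of the 411 of cluster 12. Without both, the log2 differences were -3.66 for Ccl2, 1.99 for Ccl3, 1.58 for Ccl4 and 1.43 for Ccl7.

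The UMIs of Ccr1, Ccrl2 and Ccr2 were mostly in neutrophil-like and macrophage/monocyte-like cells, and Ccr2 was also seen in T and NK-like cells. Neutrophil-like cells held 55.4% of 1054 UMIs of Ccr1 and 69.7% of 2239 UMIs of Ccrl2, an atypical receptor that binds chemerin. Macrophage/monocyte-like cells held 72.6% of 562 UMIs of Ccr2. Its level ranged from 295 to 1004 CPM in them (n = 6 libraries) and from 290 to 1016 CPM in T and NK-like cells (n = 4), which overlap. Over all kept barcodes Ccr1 was at 1126, 574 and 81.3 CPM in FVIO-MHT 1, 2 and 3 and at 107, 26.9 and 99.8 CPM in PBS 1, 2 and 3. FVIO-MHT 3 lay below PBS 1 and PBS 3, as it did for Ccl3. The log2 difference of Ccr1 was 3.46 ± 1.10 (SE) and that of Ccrl2 3.82 ± 1.23 (SE; edgeR adjusted p = 0.878 for both). Ccr2 was at 60.7, 120 and 93.3 CPM against 94.3, 65.1 and 161 CPM, with overlap between the groups, PBS 3 the highest and FVIO-MHT 1 the lowest, and a log2 difference of -0.03 ± 0.47 (SE). Within macrophage/monocyte-like cells the log2 differences of Ccr1, Ccr2 and Ccrl2 lay between -0.70 and 0.37, and none of these 3 was called. Ccr3, Ackr1, Ackr2 and Ackr4 had 8, 23, 1 and 3 UMIs in all and were not tested.

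Of 12 other CC chemokines, 10 had a UMI and 2 could be tested over all kept barcodes. Ccl5, a T cell and monocyte attractant, had 206 UMIs and a log2 difference of -0.79 ± 0.79 (SE), and Ccl24, an eotaxin, had 86 UMIs, of which 82.6% were in macrophage/monocyte-like cells, and a log2 difference of 0.89 ± 0.93 (SE). Among 15 chemokine inducers and NF-kB genes 13 were tested, with 0 called by edgeR and 2 at an unadjusted p under 0.05, beside 5.24% of all genes, and 11 had the higher level with FVIO-MHT, beside 47.0% of all genes. The 2 were Il1b, at a log2 difference of 3.73 ± 1.22 (SE), and Tnf, at 3.02 ± 1.07 (SE), and within macrophage/monocyte-like cells the values were 0.14 ± 0.52 and -0.01 ± 0.59 (SE). In tumour epithelial-like cells 10 of the 12 tested were lower with FVIO-MHT, with a median log2 difference of -1.05. Of all genes tested in this class 50.7% were higher, and their median was 0.009. Of the 10, 6 had an unadjusted p under 0.05, beside 9.78% of all genes in either direction and 4.37% higher. Immediate early genes, which also respond to dissociation of tissue, had a median log2 difference of -0.33 over all kept barcodes. It was 0.28 in macrophage/monocyte-like and -1.10 in tumour epithelial-like cells. In the last class all 9 were lower with FVIO-MHT and 7 had an unadjusted p under 0.05, against the same shares of all genes. Ccl2 had the same sign in tumour epithelial-like cells, and the part of dissociation in it was not tested.

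Over 30 sums of a library and a cell class with at least 20 cells, the genes most like each member were found by Pearson's r of log2(CPM + 10) among 9521 genes. These sums share libraries and depth, so r is a description. Ccl3 was most like Ccdc88b (r = 0.935), Tnfrsf1b (0.907) and Cxcl2 (0.897), and Ccl4 was most like Osm (0.914), Ccl3 (0.895) and Lilr4b (0.868). Ccl6 was most like Il1b (0.858), Csf2rb (0.840) and Osm (0.830). Ccl9 was most like Ms4a7 (0.892), Ms4a6c (0.866) and C3ar1 (0.817), and Ccl12 most like Ms4a4a (0.864), Trem2 (0.838) and Ccl24 (0.834). Ccl7 was most like Colec12 (0.902), Spon1 (0.870) and Ctsk (0.863), and Ccl2 most like Il11ra1 (0.768), Ackr3 (0.768) and Rnase4 (0.758). Ccl8 was most like Pdpn (0.782) and Rnase4 (0.744). Between members r was 0.708 for Ccl2 and Ccl7, neighbours on the chromosome, and -0.29 for Ccl2 and Ccl3.

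Barcodes under 200 detected genes, which hold shallow cells and free RNA, also carried the members. In them Ccl3 was at 9924, 3084 and 211 CPM in FVIO-MHT 1, 2 and 3 and at 1913, 445 and 747 CPM in PBS 1, 2 and 3. Those of FVIO-MHT 1 hold 5211 Ccl3 UMIs, against 1250 in its kept barcodes. Ccl4 was at 3026, 1664 and 749 CPM against 886, 598 and 1094 CPM, so FVIO-MHT 3 lay below PBS 1 and PBS 3 there, unlike in the kept barcodes. Ccl9 was at 41.9, 55.0 and 130 CPM against 25.9, 61.8 and 91.6 CPM, where the groups overlap as well. Neither order seen over all kept barcodes was thus found in the shallower barcodes. Ccl2 was at 28.6, 289 and 185 CPM against 23.9, 256 and 357 CPM, with overlap in both sets of barcodes.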

How the data were processed

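The deposited matrices hold UMI counts for each gene in each barcode. The authors aligned Drop-seq reads with STAR 2.7.2b to mm10, per the submitters' processing notes. How molecules were counted, barcodes chosen and doublets treated is not given by these notes or the labels. Of 27998 gene rows, 65 repeated the counts of a symbol already listed and were dropped. Barcodes with 200 or more detected genes were kept, 6730 of 30000, and library totals ran from 678337 to 2207534 UMIs. Scrublet called 39 kept barcodes doublets (0.579%), and they stayed in the main values. Cells were clustered with scanpy 1.11.5 (2000 variable genes without chemokines, 30 principal components, 15 neighbours, Leiden resolution 1). A cluster was named "-like" from 3 or more fixed markers seen in 5% or more of its cells at 2 or more times the level of the median cluster. Clusters left unnamed were then compared with the named non-epithelial clusters for tumour epithelial markers, a step added after seeing the data. Of the tumour epithelial-like clusters, 6, 7, 8, 9 and 12 were named only in this step, and cluster 5 in the first.

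Counts were summed per library and class and tested with edgeR 4.0.16 (TMM, filterByExpr, quasi-likelihood, Benjamini-Hochberg over all genes tested, R 4.3.3), using libraries with at least 20 cells of the class. Fit and calls were also run on counts simulated with a fixed spread and, apart from the changed genes, common gene proportions in every library. The libraries here differ in cell make-up, so that run does not check the calls above. DESeq2 1.42.0, other size factors, no filter, other gene minimums, another Leiden resolution, chemokines kept in clustering, stricter naming, doublets left out, a replicate block and each library left out were alternatives. Leaving out shared barcodes, single macrophage/monocyte-like clusters, neutrophil-like cells and tumour clusters 9 and 12 were added after seeing the data. Exact intervals (95%) came from scipy 1.17.1. A share of cells was also computed after thinning to 300 UMIs, over cells with at least 300 UMIs and without the shallower ones. Levels were plotted with 10 CPM added. The 8 members are named in every comparison, and from each other list the genes with the most UMIs, while Il1b and Tnf were named for their p-values. The members and lists were chosen with earlier results of these data known. Results for a few genes of the lists are not reported here.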

Additional observations from a re-analysis of the deposited data

How the results depend on the processing

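The number of genes that passed the threshold depended on the method. Over all kept barcodes DESeq2 called 185 genes and edgeR without a filter on low counts 2, and leaving out any 1 library gave 0. In macrophage/monocyte-like cells, DESeq2 called 2, no filter 26, a minimum of 400 genes 2 and cluster 1 alone 1, and leaving out 1 library gave 0 to 3. In neutrophil-like cells, keeping chemokines in the clustering gave 3. In tumour epithelial-like cells, DESeq2 called 28 and no filter 200, and leaving out 1 library gave 0 to 209 (209 without FVIO-MHT 2). In fibroblast-like cells, DESeq2 called 5, no filter 12 and leaving out the Scrublet calls 0, and leaving out 1 library gave 9 to 41. The cause was not tested.

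Of 393 alternative values of the members' log2 differences, 356 kept their sign and side of the threshold, 13 newly passed it and 24 changed sign. Over all kept barcodes, Ccl8 changed sign at a minimum of 400 genes (0.26) and without neutrophil-like cells (0.0071), and its range with 1 library left out was -0.95 to 1.91, against -0.86 to 0.92 for Ccl2. In macrophage/monocyte-like cells, a minimum of 400 genes, which also took FVIO-MHT 1 out of the fit, gave -0.78 for Ccl2 and -0.11 for Ccl3. Cluster 1 alone, again without FVIO-MHT 1, gave -0.060 for Ccl12, -0.87 for Ccl9 and -0.40 for Ccl4, and cluster 2 alone, without PBS 2, gave -0.0090 for Ccl2 and -0.056 for Ccl3. With 1 library left out, the ranges there were -0.37 to 1.06 for Ccl2, -0.95 to 1.38 for Ccl12, -1.50 to 0.81 for Ccl8, -0.10 to 1.54 for Ccl6 and -0.22 to 2.03 for Ccl3. In fibroblast-like cells, Ccl8 was 0.13 without the filter and 0.0016 without the shared barcodes, and with 1 library left out Ccl2 ranged from -1.92 to 2.18 and Ccl8 from -0.82 to 0.58. Of 60 alternative source shares 3 moved by more than the SD of the share over libraries: Ccl7 in macrophage/monocyte-like cells to 16.9% at 400 genes, and at Leiden resolution 2 Ccl12 in tumour epithelial-like cells to 8.02% and Ccl9 in macrophage/monocyte-like cells to 49.2%. That SD is wide for neutrophil-like cells, whose shares at 400 genes stayed within it although they went to 40.3% for Ccl3, 19.96% for Ccl4 and 4.29% for Ccl6. At Leiden resolution 2 the tumour epithelial-like share was 8.13% for Ccl9 and 7.36% for Ccl7, against 18.7% and 14.2%. The cause was not tested.

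The labels give no pairing of the libraries by replicate number. Same-numbered libraries had deviations correlated at 0.166, -0.019 and -0.10 over all kept barcodes. In macrophage/monocyte-like cells the values were 0.14, -0.10 and 0.12. With 3 libraries per group these values cannot show whether the numbers pair the libraries. With the replicate number as a block edgeR called 65 genes in tumour epithelial-like cells, Ccl2 among them (-4.07, adjusted p = 8.37e-05). FVIO-MHT 1, with 1 cell of that class, did not enter this fit, so PBS 1 stood alone in its block. PBS 1, the PBS library with the lowest Ccl2 in that class, thus added nothing to the group difference. The Ccl2 value rests on the remaining libraries, of which the PBS ones share barcodes. With the block edgeR called 0, 0 and 1 genes over all kept barcodes, in macrophage/monocyte-like and in fibroblast-like cells. Ccl8 over all kept barcodes was 0.84 with the block.

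Neutrophil-like cells were fitted neither with the block nor with a library left out, and neutrophil-like and fibroblast-like cells not at 400 genes, because too few libraries remained. Where an arm kept 1 library, it was assumed to vary like the others. Depth was lowest for Ccl12, Ccl9 and Ccl8, with 212, 246 and 426 UMIs in all, the fewest of the 8.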
